A study of Mus musculus with 6 samples.

Results

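In islets of Langerhans from 6 plates of mouse cells, 245 of the 2115 wells kept for analysis held somatostatin transcripts together with transcripts of pancreatic polypeptide (Ppy). A well counts as 1 of these when at least 0.73% of its unique molecular identifiers (UMIs, 1 per captured transcript) came from Sst, at least 3% from Ppy, under 3.3% from Ins1 and Ins2 together and under 2.3% from Gcg. The wells were thus chosen by the measured shares of these 5 genes, so their levels are given as description only and were not tested. The wells are called Sst-Ppy wells here. The 295 wells that met the same limits for Sst, insulin and Gcg but held under 3% Ppy are called low-Ppy wells, and the 62 wells with at least 3% Ppy and under 0.73% Sst, held to the same insulin and Gcg limits, are called PP wells.

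Pancreatic islets hold several hormone cell types. Delta cells secrete somatostatin, which acts on neighbouring cells to restrain the release of insulin and glucagon, and they depend on the transcription factor Hhex. PP cells, also called gamma cells, secrete pancreatic polypeptide, a gut and pancreas hormone that slows digestive secretion and appetite. Ppy and Pyy (peptide YY) are neighbouring genes of 1 hormone family, and Pyy is known to be expressed in islet cells outside the PP population too.

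All mice were male, carried Sox9-CreER and a tdTomato reporter, and were treated with tamoxifen (8 mg) from 10 weeks of age. The Cre enzyme is driven by Sox9, a gene of pancreatic duct and progenitor cells, so tdTomato marks cells in which Sox9 was active at that time and their descendants. At 12 weeks the mice had either a partial pancreatectomy (ppx), which removes part of the gland, or a sham operation, and islets were isolated 4 weeks later. Single cells were sorted into 384-well plates and read by MARS-seq, which counts UMIs at the 3′ end of transcripts. Plates sham 1 and ppx 1 hold tomato-positive cells, plates sham 3, ppx 2 and ppx 3 hold tomato-negative cells, and plate sham 2 is mixed, with 4 rows of positive wells that the column names do not point out. The labels do not say which animal or animals fed which plate, so the spread given here is between plates, which may be technical.

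The plates held 1250861 to 1508513 UMIs each, and 339 to 362 of the 384 wells of each plate were kept. No wells were removed as doublets (2 cells in 1 well), and 0 column names were shared between plates. The Sst-Ppy wells numbered 85, 34 and 3 on sham 1, sham 2 and sham 3, and 110, 7 and 6 on ppx 1, ppx 2 and ppx 3. Thus 195 of the 245 wells came from the tomato-positive plates, and the 3 tomato-negative plates gave few. Somatostatin wells of any Ppy share lay mostly on the same plates, with 212 of 540 on sham 1 and 224 on ppx 1.

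Sst lies on another chromosome than Ppy and Pyy. On GRCm38 (GENCODE vM21), Sst is a protein-coding gene on the minus strand at chr16:23889573-23890958. Ppy lies on the minus strand at chr11:102099930-102101319, and Pyy lies 5356 bases away on the same strand at chr11:102106676-102107832. The 120 bases before the RefSeq start of the 3 genes (GRCm38.p6) are shown because transcripts of all 3 were counted together in these wells. The Sst stretch is chr16:23890845-23890964, the Ppy stretch chr11:102101320-102101439 and the Pyy stretch chr11:102107833-102107952, all on the minus strand and written 5′ to 3′. The GENCODE gene of Sst begins upstream of the RefSeq start, so most of the Sst stretch lies inside the gene as GENCODE draws it. Capitals mark the cAMP response element TGACGTCA or the TATA box core TATAA, each searched on both strands.
Sst: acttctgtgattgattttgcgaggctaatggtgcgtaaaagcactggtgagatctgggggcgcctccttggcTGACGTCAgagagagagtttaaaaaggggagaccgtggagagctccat
Ppy: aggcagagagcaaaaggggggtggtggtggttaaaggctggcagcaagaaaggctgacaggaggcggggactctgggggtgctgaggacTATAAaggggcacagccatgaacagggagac
Pyy: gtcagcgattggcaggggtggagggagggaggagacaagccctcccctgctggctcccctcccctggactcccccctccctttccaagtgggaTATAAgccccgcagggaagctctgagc
In stretches of this length TGACGTCA was found before 407 of 32851 starts (1.24%), among them that of Sst but not those of Ppy or Pyy. TATAA was found before 3892 of them (11.8%), including Ppy and Pyy and not Sst. Pancreatic polypeptide and peptide YY thus share a motif in this window that the somatostatin stretch lacks. A match describes letters in the window only.

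Ppy formed a continuous range over the somatostatin wells rather than a separate high group at 3%. Of the 540 somatostatin wells, 90 held 1 to 2% Ppy, 76 held 2 to 3%, 64 held 3 to 4% and 64 held 4 to 5%, so the limit of 3% falls within the bulk. The 3 wells just inside it held 3.035, 3.037 and 3.07% Ppy, and the 3 just outside 2.928, 2.941 and 2.989%. The exact Clopper-Pearson 95% interval of the Ppy share reached below 3% in 56 of the 245 Sst-Ppy wells (22.9%) and reached 3% in 67 of the 295 low-Ppy wells (22.7%). Such intervals, here and below, cover counting error only. Above the limit, 196 of the 245 wells (80%) lay between 3 and 7%, and only 4 of the 540 somatostatin wells lay between 10 and 15%. A further 16 wells (6.53% of the Sst-Ppy wells) lay at 15.9 to 31.4%, the range of many PP wells. The division at 15% was chosen after these values were seen, so no test compares the wells on either side of it. Tests below with the limit raised to 10% bear largely on the same wells. The wells above 10% were these 16 and the 4 between 10 and 15%, and those tests used only 2 plates. Fits without the 16 wells also rest on this later choice.

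**Figure D1:**
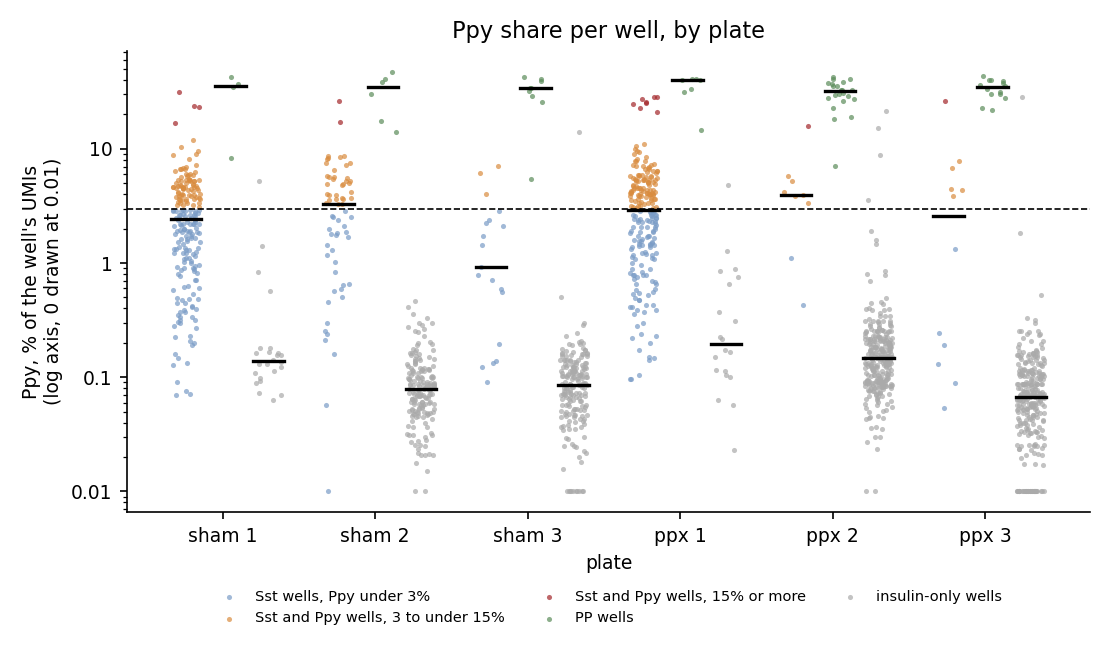
Ppy as a percentage of a well's UMIs (log axis, wells at 0 drawn at 0.01) in each well, by plate, for somatostatin wells (blue under 3%, orange 3 to under 15%, red 15% or more), PP wells (green) and insulin-only wells (grey). Black bars are medians, the first on each plate over all somatostatin wells; on sham 1, sham 2 and ppx 1 the somatostatin wells run through the dashed 3% line without a gap, while the insulin-only medians lie at 0.0675 to 0.194%.

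Ppy in the somatostatin wells, also in those under 3%, stood above its level in insulin-only wells. The median Ppy share was 4.89% in Sst-Ppy wells and 1.23% in low-Ppy wells, against 0.0920% in 1000 insulin-only wells, 0.155% in 153 glucagon-only wells and 33.4% in PP wells. In insulin-only wells the plate medians ran from 0.0675 to 0.194%, and in low-Ppy wells from 0.161 to 1.35%, higher on 6 of 6 plates. In glucagon-only wells they ran from 0.0868 to 3.09%. A Ppy share of 3% or more was found in 8 of the 1000 insulin-only wells (0.8%), 23 of the 153 glucagon-only wells (15.03%) and 10 of the 183 wells past both the insulin and the Sst limits (5.46%).

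Sst remained the larger hormone in most Sst-Ppy wells. Its median share was 7.65%, with a lowest value of 0.970% and a highest of 28.7%, and it exceeded Ppy in 183 of the 245 wells (74.7%). In the 16 wells with at least 15% Ppy it never did (0 of 16). Low-Ppy wells held a median of 8.96% Sst and PP wells 0.0287%. Insulin and Gcg were low under the rule itself, with medians of 0.635 and 0.3003% in Sst-Ppy wells and 0.574 and 0.276% in low-Ppy wells.

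The scatter of Ppy between wells was wider than that of Pyy, a gene of similar mean share. The dispersion index, which is 1 when wells differ by counting noise alone, was computed over the somatostatin wells under 15% Ppy on the 3 plates with the most of them. For Ppy it was 30.5, 32.5 and 30.2 on sham 1, sham 2 and ppx 1. For Pyy, with a similar mean share (2.61 to 2.84% against 2.97 to 3.47% for Ppy), it was 10.3, 13.6 and 9.70, so Ppy varied more than its neighbour on each of these plates. Sst itself gave 15.4, 15.02 and 16 and Rbp4 3.19, 3.13 and 2.60. No test was made of these indices, since Ppy and Sst chose the wells.

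Sst-Ppy wells made up 45.4% of all somatostatin wells. By plate the share was 40.1% (95% interval 33.4 to 47.0), 53.1% (40.2 to 65.7) and 15.8% (3.38 to 39.6) on sham 1, sham 2 and sham 3, and 49.1% (42.4 to 55.9), 77.8% (40.0 to 97.2) and 50% (21.1 to 78.9) on ppx 1, ppx 2 and ppx 3. Sham 3 was lowest and ppx 2 highest, with 19 and 9 somatostatin wells, and the groups overlapped. The mean was 59.0% ± 16.3 after ppx and 36.3% ± 19.0 after sham (SD, n = 3 plates each), a difference of 22.6 percentage points (exact two-sided permutation of plate labels, p = 0.3, smallest possible 0.1). Between plates of the same number the share was higher after ppx in 3 of 3 pairs, where 3 pairs cannot give less than the exact two-sided p of 0.25 found here. Neither test could pass 0.05 with so few plates. On the tomato-positive plates alone the difference was 9.01 points (1 plate against 1), and on the tomato-negative plates alone 48.1 points (2 against 1). Taken over all kept wells instead of somatostatin wells, it was 0.0288 points. The share was 44.6% ± 6.37 on 2 tomato-positive and 47.9% ± 31.1 on 3 tomato-negative plates (SD), a difference of -3.26 points (exact two-sided permutation, p = 0.8, smallest possible 0.1).

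With wells divided at 3% Ppy, the median depth of Sst-Ppy wells was near that of low-Ppy wells. Their median UMIs per well were 1529, 1741 and 2081 on sham 1, sham 2 and sham 3 and 1573.5, 1941 and 2430.5 on ppx 1, ppx 2 and ppx 3. Low-Ppy wells held 1458, 1532, 1890.5, 1616, 1496 and 1837.5 on the same plates. On the 4 plates with at least 5 wells of each class (sham 1, sham 2, ppx 1 and ppx 3), the ratio of medians was 1.05, 1.14, 0.974 and 1.32, above 1 on 3 of 4 plates. The mean log2 ratio was 0.15 (SD 0.19, n = 4; exact two-sided sign flips over plates, p = 0.25, smallest possible 0.125). With the Ppy limit raised to 10% the mean log2 ratio was 1.68, on 2 plates. The number of genes seen per well (median 825 against 808) and the mitochondrial share (11.5 against 12.1%) were also close.

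Against 1 low-Ppy well plus 1 PP well, Sst-Ppy wells were shallow. PP wells were deeper than either class, with a median of 3393 UMIs over all plates. On sham 2, ppx 1 and ppx 3, the plates with at least 5 wells of all 3 classes, the median of Sst-Ppy wells was 0.323, 0.335 and 0.458 times the sum of the other 2 medians. The mean log2 ratio was -1.45 (SD 0.28, n = 3), below 0 on 3 of 3 plates, where 3 plates cannot give less than the exact two-sided sign-flip p of 0.25 found here. The 16 wells with at least 15% Ppy differed from the rest in this measure. Their UMIs ran from 2526 to 13270 with a median of 6308.5, against a median of 1590 in the 229 wells under 15%. The lowest of them stood below and the median above the 5273.5 UMIs that was the median of 32 summed pairs, each the UMIs of 1 low-Ppy well and 1 PP well of the same plate added together and kept if the sum met the limits of the Sst-Ppy wells.

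**Figure D2:**
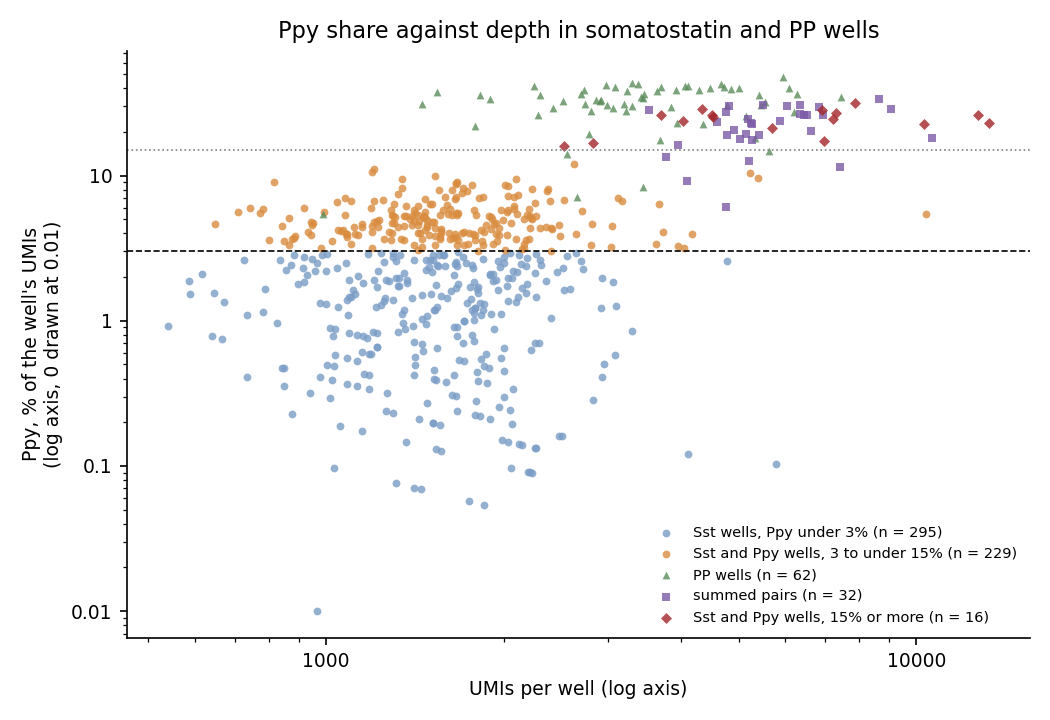
Ppy share (log axis, 0 drawn at 0.01) against UMIs per well (log axis) for low-Ppy wells, Sst-Ppy wells on both sides of 15% Ppy, PP wells and summed pairs, with a dashed line at 3% and a dotted line at 15%. Most Sst-Ppy wells lie at the depth of the low-Ppy wells, while the 16 wells of 15% or more run from 2526 to 13270 UMIs, past both ends of the range of the summed pairs (3525 to 10642).

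Outside the genes of the rule, 1 gene passed the test between Sst-Ppy and low-Ppy wells. Each plate gave 1 sum of UMIs per class, and the 4 plates with at least 5 wells of each class were compared with edgeR's quasi-likelihood test with plate as a block, with genes called at a Benjamini-Hochberg adjusted p under 0.05. Of 1766 genes tested, 1 was called (0.0566%), and 70 had an unadjusted p under 0.05. The called gene was E130111B04Rik, described below. DESeq2 called 0 and gave 7 genes an unadjusted p under 0.05. The interaction of class and operation called 0 genes, with 43 at an unadjusted p under 0.05.

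No delta cell marker was called between wells divided at 3% Ppy. Levels are in CPM (UMI counts scaled to an equal total) of a class on a plate, with the 5 genes of the rule left out of the total, and compare 1 gene between wells. Rbp4, a retinol carrier used as a delta cell marker, stood at 5029.6, 4828, 4602 and 5941 CPM in Sst-Ppy wells and 5398, 7463, 5042 and 4278 CPM in low-Ppy wells of sham 1, sham 2, ppx 1 and ppx 3. The 2 ranges overlapped, with Sst-Ppy wells lower on 3 of 4 plates and higher on ppx 3. The log2 difference was -0.16 ± 0.12 (SE, edgeR adjusted p = 0.999). Hhex stood at 406, 398, 494 and 306 CPM against 541, 370, 452 and 1013 CPM, higher on 2 plates and lower on the other two (log2 difference -0.18 ± 0.18 SE). Cd24a, a surface protein, gave -0.07 ± 0.12 (SE). Of 20 delta markers, 10 were tested, 0 were called and 3 had a positive difference, with a median of -0.09 beside -0.01 over all genes tested (48.6% positive). With the Ppy limit raised to 10% (2 plates), 32 genes were called, and these 3 were lower in the wells above it. The log2 difference was -1.53 for Rbp4 (edgeR adjusted p = 6.93e-14), -1.71 for Hhex (0.00516) and -1.74 for Cd24a (3.09e-08).

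With wells divided at 3% Ppy, markers of PP cells did not pass the test either. Pyy stood at 36338, 36714, 36950.1 and 67675 CPM in Sst-Ppy wells and 29801, 38227, 30234 and 34560.4 CPM in low-Ppy wells of the same 4 plates. Sst-Ppy wells were higher on 3 of 4 plates, by most on ppx 3, with overlapping ranges (log2 difference 0.39 ± 0.14 SE, edgeR adjusted p = 0.948). With no filter on low counts this difference passed (0.45, edgeR adjusted p = 0.0312), as it did with the Ppy limit raised to 10%, which leaves 2 plates (1.18, edgeR adjusted p = 1.90e-11). Ttr, the thyroid hormone and retinol carrier transthyretin, stood at 1130.5, 1022.5, 707.5 and 919 CPM against 647.5, 1009.9, 537 and 788 CPM. It was higher on 4 of 4 plates, by little on sham 2, and the ranges overlapped (log2 difference 0.49 ± 0.14 SE, edgeR adjusted p = 0.325). At the limit of 10% it was called higher too (1.61, edgeR adjusted p = 2.47e-11). Isl1, a transcription factor of islet cells, and Scgn, the calcium sensor secretagogin, gave 0.42 ± 0.20 and 0.46 ± 0.19 (SE). Of 20 PP markers, 11 were tested, 0 were called and 8 had a positive difference, with a median of 0.25. Not every listed gene was higher in PP wells than in low-Ppy wells. Pooled over sham 1, sham 2 and ppx 1, Chgb stood at 2166.5 against 5488 CPM. Isl1 stood at 170 (7 UMIs) against 328.5 CPM, though it was higher in PP wells on ppx 2 and ppx 3. Pyy, Ttr and Scgn were higher in the pooled PP wells. Without the 16 wells of 15% Ppy or more, the difference was 0.05 for Pyy and 0.01 for Ttr.

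**Figure D3:**
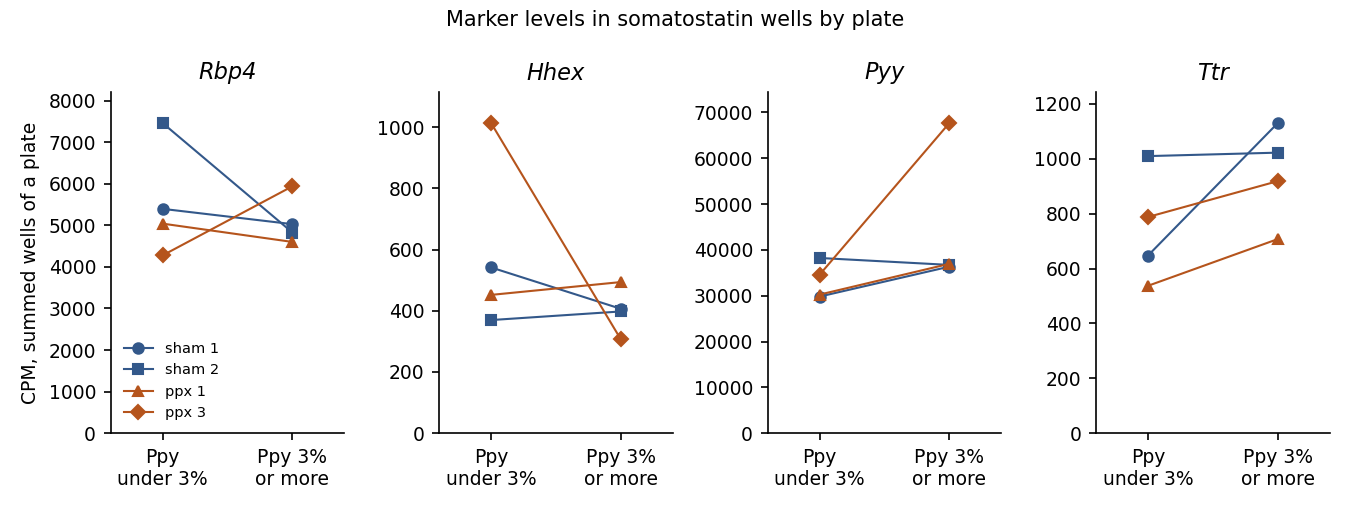
Rbp4, Hhex, Pyy and Ttr in CPM of the summed wells of a plate, in low-Ppy wells (left of each panel) and Sst-Ppy wells (right), with a line for each of the 4 plates. Ttr is higher in Sst-Ppy wells on 4 of 4 plates, Pyy on 3, Hhex on 2 and Rbp4 on 1.

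Other gene groups showed 0 called genes. Among immediate early genes, which respond fast to stimuli and to tissue dissociation, 14 of 18 were tested and 10 were positive, with a median of 0.16; Fosb had the smallest p among them (0.51 ± 0.14 SE, edgeR adjusted p = 0.215). Of 13 tested chaperones of the endoplasmic reticulum the median difference was 0.09, and of 15 granins and prohormone processing genes it was 0.06. Chgb, the granule protein chromogranin B, gave -0.07 ± 0.12 (SE). Of 7 tested beta cell markers 2 were positive, with a median of -0.18, and the one with the smallest p, Iapp (islet amyloid polypeptide, made with insulin), gave -0.30 ± 0.13 (SE). The 13 tested islet transcription factors had a median of -0.10, with 4 positive. Ghrl did not pass the filter on low counts.

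Pyy was present in nearly every somatostatin well, whatever its Ppy. At least 1 Pyy UMI was found in 244 of 245 Sst-Ppy wells and 295 of 295 low-Ppy wells, at median depths of 1640 and 1539 UMIs. In insulin-only wells, at a median of 4250.5 UMIs, 68.2% held a Pyy UMI, and 27.2% after thinning to 1000 UMIs, against 100% of Sst-Ppy wells thinned in the same way. The median Pyy share by plate was 2.27, 2.31 and 3.75% in Sst-Ppy wells of sham 1, sham 2 and sham 3, and 2.29, 3.29 and 4.29% on ppx 1, ppx 2 and ppx 3. Low-Ppy wells held 2.50, 2.86, 1.81, 2.50, 6.85 and 2.42% on the same plates. The order of the 2 classes thus changed from plate to plate, and the value of 6.85% rests on 2 wells.

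E130111B04Rik was the 1 gene called against low-Ppy wells. It is annotated as an antisense RNA gene on the minus strand at chr11:102030268-102035084, 64845 bases from Ppy on the same chromosome. Whether counting used the strand is not given in the sources used here, so its reads cannot be told from those of an overlapping gene on the other strand. It stood at 650, 379, 1168 and 6186 CPM in Sst-Ppy wells and at 100.5, 24.6, 159 and 0 CPM in low-Ppy wells of sham 1, sham 2, ppx 1 and ppx 3. The ranges did not overlap, and the log2 difference was 3.11 ± 0.20 (SE, edgeR adjusted p = 1.34e-49). Ppy divided these 2 classes, and the gene kept close to a fixed ratio to Ppy within a plate, as given below. The p-value is therefore no independent evidence of a difference between the classes. DESeq2 gave 3.80 with an adjusted p of 0.0835, and without the 16 wells of 15% Ppy or more edgeR gave 2.07 (adjusted p = 2.80e-10). At least 1 UMI was seen in 131 of 245 Sst-Ppy wells, 41 of 295 low-Ppy wells and 62 of 62 PP wells. Thinned to 1000 UMIs these shares were 38.4, 9.73 and 95.4%, against 5.03% in insulin-only wells.

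Within a plate, E130111B04Rik kept close to 1 ratio to Ppy in the classes of well that could be compared. As a share of the UMIs of both genes it was 0.657% in Sst-Ppy wells and 0.687% in PP wells of sham 1. The pair of values was 0.381 and 0.484% on sham 2, 1.42 and 2.07% on sham 3, 0.964 and 0.984% on ppx 1, 6.04 and 5.98% on ppx 2, and 2.50 and 2.98% on ppx 3. Insulin-only wells, where both genes were scarce, gave 0.510, 0.680, 1.90, 1.65, 6.09 and 2.91% on the same plates, and glucagon-only wells 0.4926, 0.394, 1.93, 0.848, 6.56 and 2.27%. The 95% intervals of the 4 classes overlapped on each plate, while the level differed between plates. Low-Ppy wells held 18, 1, 2, 26, 4 and 0 UMIs of the gene beside 2774, 584, 275, 2498, 22 and 37 of Ppy. As a share of both this was 0.645, 0.171, 0.722, 1.03, 15.4 and 0% on the same plates. Only the values of sham 1 and ppx 1, near those of the Sst-Ppy wells there, rest on more than 4 UMIs of the gene. Since Ppy chose the wells, the difference in E130111B04Rik is not independent of the rule.

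**Figure D4:**
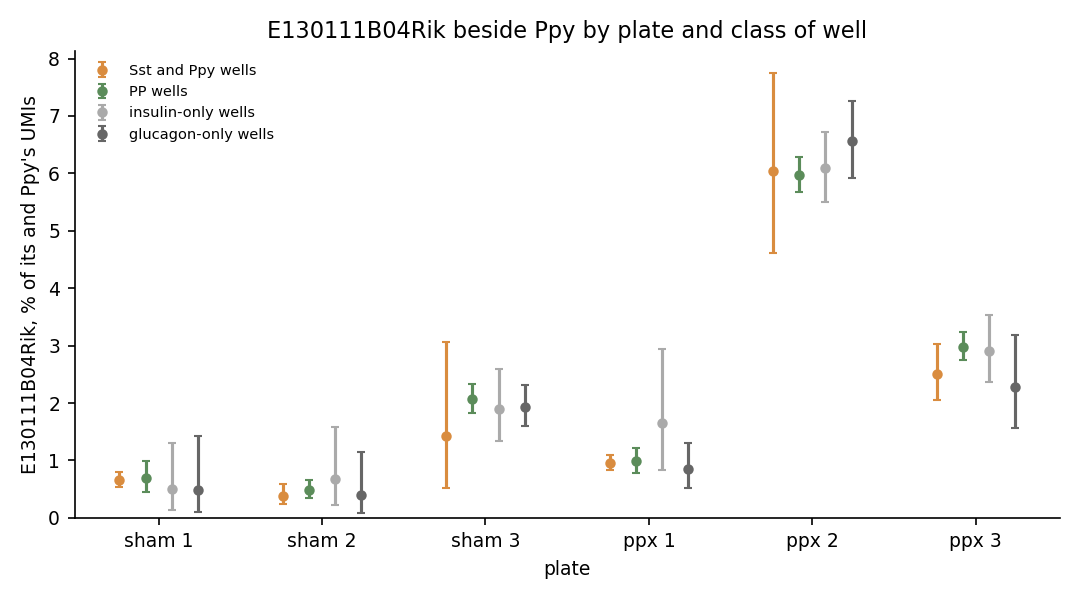
UMIs of E130111B04Rik as a percentage of the UMIs of E130111B04Rik and Ppy together, by plate, in Sst-Ppy, PP, insulin-only and glucagon-only wells; error bars are exact Clopper-Pearson 95% intervals. The classes lie together within a plate, from under 1% on sham 1 and sham 2 to about 6.04% on ppx 2.

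The levels of several markers in the 16 wells with at least 15% Ppy stood apart from those in the other 229. They lay on sham 1 (4 wells), sham 2 (2), ppx 1 (8), ppx 2 (1) and ppx 3 (1). Levels were pooled over sham 1, sham 2 and ppx 1, which held 14 of them, with exact Poisson 95% intervals that cover counting error only and do not include the spread between plates or wells. Rbp4 stood at 5430.1 CPM (5177 to 5692) in Sst-Ppy wells under 15% and at 5464 (5233 to 5704) in low-Ppy wells, against 1686 (1385 to 2034) in the wells of 15% or more and 292 (151 to 510.3) in PP wells. Cd24a followed the same order, with 1508, 1418, 418 and 48.7 CPM. Hhex was 506 CPM (431 to 590.4) under 15%, 485 (418 to 559.8) in low-Ppy wells, 155 (74.2 to 285) at 15% or more and 122 (39.5 to 284) in PP wells. Delta cell transcripts were thus at similar CPM in the wells under 15% and in low-Ppy wells, and lower in the wells of 15% or more.

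Transcripts frequent in PP wells ran the other way. Pyy stood at 29696 CPM under 15% Ppy and 30878 in low-Ppy wells, but at 71074 in the wells of 15% or more and 88849 in PP wells. Ttr gave 663, 639, 2150.5 and 2507 CPM in the same order. In these pooled levels the wells under 15% stood with the low-Ppy wells for both genes. The wells of 15% or more lay between these and the PP wells. For Pyy that order did not hold on each plate. The median Pyy share of all UMIs was 6.04% in the wells of 15% or more and 2.61% in PP wells of sham 1. The pair of shares was 5.24 and 7.01% on sham 2, and 4.56 and 4.67% on ppx 1. Sham 2 gave 2150 of the 3650 pooled Pyy UMIs of PP wells. Ttr in PP wells of sham 1 stood at 1121 CPM (10 UMIs), near the 1130.5 CPM of all Sst-Ppy wells there.

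Equal depth did not remove this contrast. After thinning each well to 1000 UMIs, a Ttr UMI was expected in 66.8% of the 16 wells and 77.1% of PP wells, against 36.3% of Sst-Ppy wells under 15% and 41.9% of low-Ppy wells. Cd24a gave 32.5% in the 16 wells, 0.772% in PP wells, 72.3% under 15%, 66.4% in low-Ppy wells and 2.04% in insulin-only wells, where such UMIs give the background. Rbp4 gave 72.9% in the 16 wells, 19.5% in PP wells, 94.8% under 15%, 97.2% in low-Ppy wells and 3.04% in insulin-only wells. Hhex gave 9.42% in the 16 wells and 33.9% under 15%. Over all Sst-Ppy wells it was expected in 32.2%, against 30.1% of low-Ppy, 2.28% of PP and 0.228% of insulin-only wells. Thinning left out 22 Sst-Ppy, 36 low-Ppy, 1 PP and 10 insulin-only wells that held fewer UMIs. Unthinned, a Cd24a UMI was seen in 93.8% of the 16 wells (median 6308.5 UMIs), 4.84% of PP wells (3393), 86.5% under 15% (1590) and 7.8% of insulin-only wells (4250.5).

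**Figure D5:**
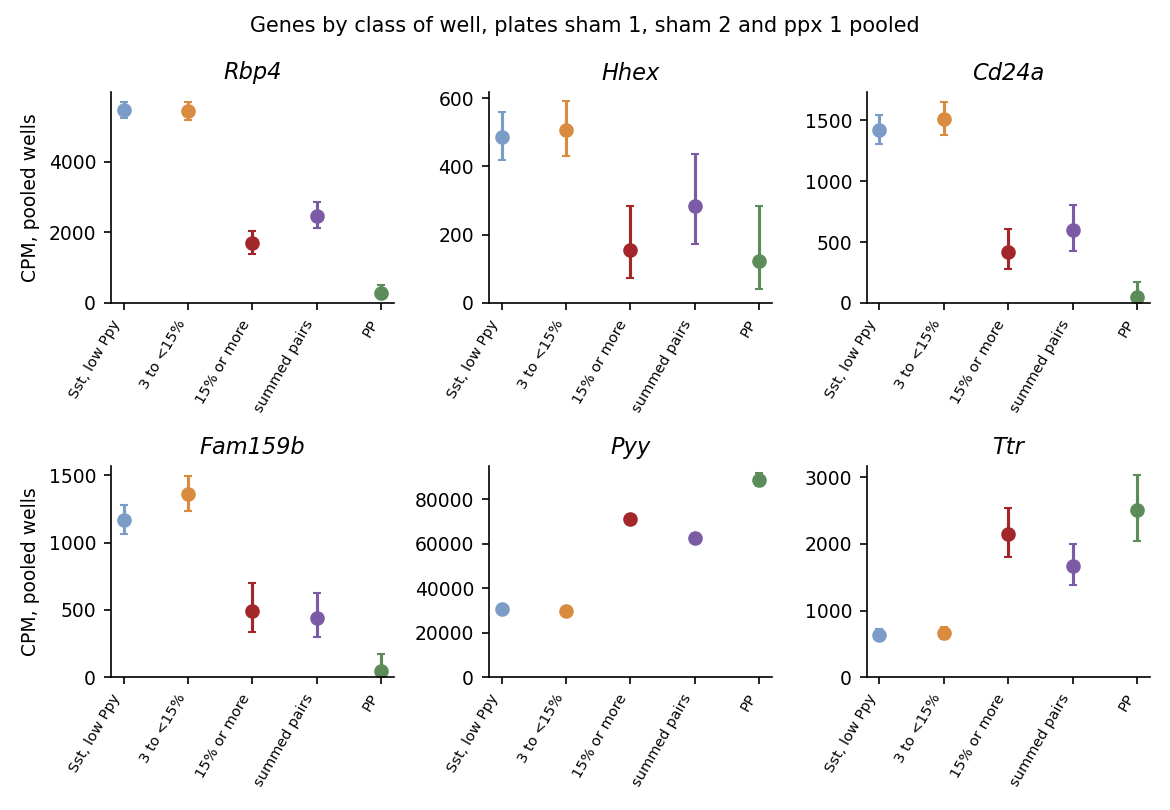
CPM of 6 genes in wells pooled over sham 1, sham 2 and ppx 1, for low-Ppy wells, Sst-Ppy wells of 3 to under 15% and of 15% or more Ppy, summed pairs and PP wells; error bars are exact Poisson 95% intervals, which cover counting error only. For Rbp4, Hhex, Cd24a and Fam159b the wells under 15% stand with low-Ppy wells, above the wells of 15% or more; for Pyy and Ttr they stand with low-Ppy wells and below the wells of 15% or more.

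Summed pairs show what adding 1 whole low-Ppy well and 1 whole PP well would give. Over all plates their median Ppy share was 23.2%, against 4.89% in Sst-Ppy wells. Sums with a smaller part of a PP well were not made, and the weight of the PP profile in each well is given below. Pooled over the same 3 plates, the 17 pairs stood at 2479 CPM of Rbp4 (2125 to 2874), 283 of Hhex, 595 of Cd24a, 62774 of Pyy and 1671 of Ttr. For Hhex, Cd24a and Ttr the intervals of the pairs and of the wells of 15% or more Ppy overlapped. Rbp4 was lower in those wells, and Pyy higher, than in the pairs by more than counting error. The plates entered the pools in unlike numbers, with 4, 2 and 8 wells against 4, 6 and 7 pairs of sham 1, sham 2 and ppx 1. Pyy in the pairs ran from 36219 CPM on sham 1 to 100690 CPM on sham 2. These pooled values thus do not show a difference within a plate. The intervals of the Sst-Ppy wells under 15% and of the pairs did not overlap for Rbp4, Cd24a, Pyy and Ttr, and overlapped for Hhex.

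Across plates, 2 genes were called between Sst-Ppy wells and summed pairs. The edgeR test with plate as a block used sham 2, ppx 1 and ppx 3, and 2 of 317 genes passed (0.631%), with 36 at an unadjusted p under 0.05. This comparison shares its Sst-Ppy wells with the one above, and its pairs contain low-Ppy wells of the same plates. The pairs also held a higher median Ppy share, so the differences below are not independent of the rule. Ttr stood at 1022.5, 707.5 and 919 CPM in Sst-Ppy wells of sham 2, ppx 1 and ppx 3 and at 2287.5, 1520.1 and 2429.9 CPM in the pairs, with no overlap. It was lower in Sst-Ppy wells, with a log2 difference of -1.23 ± 0.20 (SE, edgeR adjusted p = 0.0261). Ttr is on the list of PP markers but is not particular to PP cells, and 88.5% of insulin-only wells thinned to 1000 UMIs held a Ttr UMI, against 38.5% of Sst-Ppy wells. Fam159b stood at 1174, 1278 and 612 CPM against 541, 334 and 216 CPM, again with no overlap, a log2 difference of 1.504 ± 0.27 (SE, edgeR adjusted p = 0.0313). DESeq2 gave adjusted p of 0.0649 for Ttr and 0.228 for Fam159b, and both calls were also lost when plate ppx 1 (edgeR adjusted p = 0.645 each) or ppx 3 (0.278 each) was left out.

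The direction was shared by the delta markers that could be tested. Of the 20, 4 were tested, 4 were positive and 0 were called, with a median of 1.06 beside -0.05 over all genes tested (42.3% positive). Rbp4 stood at 4828, 4602 and 5941 CPM in Sst-Ppy wells and 2911, 2007 and 2322 CPM in pairs (log2 difference 1.03 ± 0.22 SE), and Cd24a gave 1.08 ± 0.23 (SE), both with an edgeR adjusted p of 0.0504. Pyy was lower in Sst-Ppy wells on 3 of 3 plates, at 47113 ± 17808 against 79886 ± 29528 CPM (SD, n = 3), without passing (log2 difference -0.79 ± 0.30 SE, edgeR adjusted p = 0.321). Of 20 PP markers, 9 were tested, 1 was called lower (Ttr) and 4 were positive, with a median of -0.06.

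A mixture of the 2 profiles was fitted to each well. The weight of the PP profile, against the low-Ppy profile of the same plate and without the genes of the rule and Pyy, had a median of 23.1% in Sst-Ppy wells and 23.2% in low-Ppy wells of sham 2, 6.89 and 6.46% on ppx 1, and 63.6 and 63.2% on ppx 3. The 2 classes had nearly the same weight on each plate, and the level differed between plates. Low-Ppy wells took 23.2% on sham 2 and 63.2% on ppx 3 although scored against other wells of their own class. On these 2 plates the weight therefore does not measure PP content, and equal weights there cannot tell whether the classes differ in it. Over these 3 plates the median was 20.02% in the 11 wells of 15% Ppy or more, 24.97% in 18 summed pairs and 74.6% in 27 PP wells. These medians mix plates of unlike level in unlike proportions. Plate ppx 1 held 8 of the 11 wells, and ppx 3 held 14 of the 27 PP wells. The medians therefore do not rank the classes within a plate. On ppx 3 a high weight was not particular to wells with much Ppy, since low-Ppy wells took 63.2%. The PP profile rested on 6, 7 and 14 wells, and the low-Ppy profile on 30, 114 and 6 wells, of sham 2, ppx 1 and ppx 3. With profiles pooled over all plates, a choice made after seeing the data, the median weight was 7.45% in low-Ppy wells, 9.11% in Sst-Ppy wells under 15% Ppy, 44.5% in the 16 wells of 15% or more, 40.6% in 32 summed pairs and 68.6% in PP wells. The lower and upper quartiles of the 16 wells were 38.8 and 48.1%.

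Within Sst-Ppy wells, 1 gene was called between the operations, and it was again E130111B04Rik. The edgeR test compared ppx 1, ppx 2 and ppx 3 with sham 1 and sham 2, as sham 3 held only 3 Sst-Ppy wells, and called 1 of 942 genes (0.106%), with 33 at an unadjusted p under 0.05. The gene stood at 1168, 5498 and 6186 CPM after ppx and at 650 and 379 CPM after sham, with no overlap (log2 difference 2.79 ± 0.43 SE, edgeR adjusted p = 0.000203). The 3 wells of sham 3, outside the test, gave 1095.9 CPM, near ppx 1, and a ratio to Ppy of 1.42%, above the 0.964% of ppx 1. The ratios in PP and insulin-only wells, given above, differed between plates in a similar way. With the replicate number as a block the edgeR adjusted p was 0.12, DESeq2 gave 0.714, and leaving out sham 2 (0.245) or ppx 2 (1.00) ended the call. Plates ppx 2 and ppx 3 are tomato-negative and neither sham plate is wholly so, and the operation and the sort cannot be told apart in this comparison. On the tomato-positive plates alone, the ratio to Ppy was 0.964% (0.839 to 1.101) on ppx 1 and 0.657% (0.532 to 0.801) on sham 1.

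No marker of delta or PP cells was called between the operations in these wells. Pyy stood at 36950.1, 56134 and 67675 CPM after ppx and 36338 and 36714 CPM after sham, with both tomato-negative plates well above the rest (log2 difference 0.52 ± 0.25 SE, edgeR adjusted p = 0.999). Iapp gave -0.64 ± 0.23, Ttr -0.48 ± 0.27 and Gap43, a protein of growing nerve endings, -1.38 ± 0.43 (SE). The differences of Hhex, Rbp4, Chgb and Isl1 lay between -0.10 and 0.20. Of the immediate early genes, 14 of 14 tested were positive and 0 were called, with a median of 0.52 beside -0.01 over all genes (48.7% positive). The median mitochondrial share of these wells was 10.7% on sham 1, 11.8% on sham 2, and 12.9, 10.9 and 11.7% on ppx 1, ppx 2 and ppx 3.

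Markers of other cell types were summed in both classes of somatostatin wells. Pooled over all plates, acinar genes gave 518 CPM in Sst-Ppy and 462 in low-Ppy wells, with 8 and 11 of 16 genes at 0, and duct genes 2595 and 3014 CPM, with 6 and 4 of 15 at 0. Alpha cell markers other than Gcg gave 4277 CPM (plates 3665 to 5114) and 3435 (1253 to 5516), and beta cell markers other than insulin 18960 (13229 to 28705) and 21788 (21161 to 32984). Most of the beta sum was Iapp alone, at 17910 and 20241 CPM pooled over sham 1, sham 2 and ppx 1. Endothelial genes gave 62.6 and 47.9 CPM, macrophage genes 108 and 115, and lymphocyte genes 14.5 and 2.39, with 6 of 10, 3 of 12 and 7 of 10 at 0 in Sst-Ppy wells. The 5 erythroid genes were at 0 in both classes. Their part in the results was not tested. Ghrl, the ghrelin gene of epsilon cells, had UMIs in these 2 classes only on the tomato-positive plates. It stood at 94.8 CPM on sham 1 and 587 on ppx 1 in Sst-Ppy wells, against 184 and 525 in low-Ppy wells, and at 0 UMIs in both classes on the other 4 plates. PP wells had the same pattern, with 112 CPM (1 UMI) on sham 1, 554 on ppx 1 and 0 UMIs on the other 4 plates.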

How the data were processed

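MARS-seq wells were deposited by the authors as raw UMI counts, 1 table per plate, with 52542 gene rows and 92 ERCC rows that held 3 UMIs. HISAT 0.1.6 and mm10 are named in the submitters' processing notes; for the counting tool and annotation, nothing is given in the sources used here. ERCC rows were dropped, and 96 wells under 500 UMIs and 93 over 20% mitochondrial UMIs were left out, which kept 2115 of 2304. The wells, gene lists and alternatives were chosen with earlier results of these data known. UMIs were summed per plate and class (at least 5 wells of each) and tested by the quasi-likelihood method of edgeR 4.0.16 (TMM scaling, the filterByExpr filter, Benjamini-Hochberg adjustment, threshold 0.05), with DESeq2 1.42.0 as the alternative, on R 4.3.3; Sst, Ppy, Ins1, Ins2 and Gcg were left out. Standard errors come from the F statistic. Scripts were tested on simulated data. Mixture weights were fitted by maximum likelihood (Python 3.11.15, numpy 2.4.6, scipy 1.17.1), with a well left out of its own profile and 1% of the profile of all wells mixed in. Summed pairs add the wells of a plate in column order. Plates with the same number deviated together (Pearson correlation over 2778 genes 0.72, 0.40 and 0.56 for numbers 1, 2 and 3), so numbers were taken to pair plates, although numbers 1 and 3 also share the tomato status. The text names called genes whose plates had 1 sign, the list members called or of smallest p, the genes Pyy, Hhex, Rbp4, Iapp, Ttr, Ghrl, Chgb and Isl1, and the genes of the rule; Gap43 was added after its values were seen, and some results that this rule covers are not reported here. Alternatives changed normalization, filter, thresholds, classes, block and plates left out.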

Additional observations from a re-analysis of the deposited data

Results flagged for a closer look

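Differences between Sst-Ppy and low-Ppy wells were read over 13 groups of plates for a plate far from the others; chance flags about 5% of such groups. The differences are log2 of CPM plus 1. For E130111B04Rik plate ppx 3 gave 12.59 and for Scgn 8.525. In both cases its 6 low-Ppy wells held 0 UMIs of the gene, so these values are set by the added 1 CPM and do not measure a fold. The Sst-Ppy wells of that plate held 101 UMIs of E130111B04Rik and 6 of Scgn. For Fam159b plate ppx 3 stood apart at 0.44. Each of these plate values rests on 6 wells a class.

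Among the 189 wells left out for depth or mitochondrial share, 10 met the hormone limits of the Sst-Ppy wells. They held 470 to 3172 UMIs, 1 of them was under 500 UMIs, and 9 came from the tomato-positive plates.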

How the results depend on the processing

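The share of Sst-Ppy wells was higher after ppx under every alternative run, by 0.0288 to 48.1 points, and passed the threshold in none; with the replicate block (plates paired by number) it was 22.6 points (exact p = 0.25, the smallest possible). The block changed no other call than that of E130111B04Rik between the operations. Against low-Ppy wells the count of called genes was 0 with DESeq2, 4 with no filter, 2 with the genes of the rule kept, with at most 10% mitochondrial UMIs or with at least 10 wells, 32 with a Ppy limit of 10% (2 plates), and 1 to 2 with a plate left out. Against summed pairs it was 0 with RLE scaling or at most 10% mitochondrial UMIs, 9 with no filter or no plate block, 16 with the genes of the rule kept, 17 with a Ppy limit of 1%, 8 with at least 1000 UMIs, 13 with at least 3 wells, 7 with mean wells added, and 0 to 8 with a plate left out. Between the operations it was 0 with DESeq2, no filter or the replicate block, and 0 to 2 with a plate left out. The cause of these moves was not tested. Against low-Ppy wells some small log2 differences turned sign. Without the wells of 15% Ppy or more Hhex was 0.0305, Rbp4 0.0241, Chgb 0.0236 and Cd24a 0.103, and with an Sst limit of 3% Cd24a was 0.0693. With a plate left out Rbp4 ran from -0.251 to 0.0193, Chgb from -0.147 to 0.0175 (both highest without sham 2) and Cd24a from -0.105 to 0.0372 (highest without ppx 1). At a Ppy limit of 10% Isl1 was -0.339 and Fam159b -0.950. Against pairs, Iapp ran from -0.149 (without sham 2) to 0.443 with a plate left out. Thinned to 500 UMIs, Hhex, Rbp4 and Ttr were expected in 18.0, 82.3 and 23.3% of Sst-Ppy wells, as fewer UMIs detect less. The pairs could not be compared at a Ppy limit of 10% or with at least 10 wells, nor their depth with at least 10 wells. At a Ppy limit of 10% the depth ratio of Sst-Ppy to low-Ppy wells was 1.68 (log2, 2 plates), against 0.04 to 0.22 under the other alternatives.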
